A study of Mus musculus with 64 samples.

Results

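The genes described here are 9 markers of the 2-cell-like state of mouse embryonic stem cells: the zinc-finger genes Zscan4a, Zscan4b, Zscan4c, Zscan4d, Zscan4e and Zscan4f, the pair Tcstv1 and Tcstv3, and Zfp352. They were chosen by symbol, and all 9 were found among the 55335 genes of the count table. The study tagged a single subunit of Pol II, the polymerase that transcribes mRNA genes, with a degron in V6.5 mouse embryonic stem cells, so that the auxin indole-3-acetic acid (IAA) triggers loss of that protein. The 12 degron lines, RPB1 to RPB12, each after 12 h of 500 µM IAA and without IAA, were sequenced beside wild-type (WT) cells after 12 h of IAA and without it, which gave 52 libraries in 26 groups of 2. The lines RPB1, RPB3 and RPB6 were also sequenced at 1 h and 0 h of IAA, in 12 further libraries in 6 groups of 2. Every group, the untreated and WT ones included, was given doxycycline for 12 h beforehand to switch on the auxin receptor OsTir1, at 2 µg/ml by the labels' protocols and at 1 µg/ml by the text on the design. The medium of all groups held the GSK3 inhibitor CHIR99021 and the MEK inhibitor PD0325901, and all samples received Drosophila S2 cells at 10% before extraction. The sources used here do not say whether the WT cells carry OsTir1, whether a degron line is 1 clone, or how the 0 h and 1 h libraries were made.

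Cells of the 2-cell-like state are a small and changing fraction of a stem cell culture. They express genes that are otherwise switched on when the embryonic genome becomes active at the 2-cell stage of the mouse embryo, among them the Zscan4 cluster, Tcstv genes and Zfp352, and the transcription factor Dux is known to start this programme. Zscan4 proteins bind DNA and are known in stem cells for bursts of expression during which telomeres lengthen, and Tcstv1 has also been tied to telomere length. In bulk RNA a change in the number of such cells and a change in the RNA of each cell cannot be told apart.

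The Zscan4 copies are so alike that the assignment of reads to a copy is uncertain. In GENCODE M21 on mm10 they lie on chromosome 7 between 10794242 and 11614112, a span of 820 kb with 9 annotated copies, 6 of which are described here. Zscan4a (10794242 to 10799057, minus strand) is annotated as an unprocessed pseudogene. Zscan4b (10900740 to 10905050), Zscan4d (11161374 to 11166159) and Zscan4e (11306378 to 11310682) lie on the minus strand and Zscan4c (11005745 to 11010547) and Zscan4f (11397915 to 11402318) on the plus strand, all 5 annotated as protein coding. Tcstv1 (119893388 to 119894785, minus strand) and Tcstv3 (120316878 to 120318178, plus strand) lie 425 kb apart end to end on chromosome 13, and Zfp352 (90218820 to 90225702, plus strand) on chromosome 4.

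The start of the coding sequence shows how little separates the copies. The first 90 coding bases from GENCODE M21 on mm10 are given for the copy known as the main one of stem cells, Zscan4c (chr7:11006556-11006645, plus strand), and for the copy known as the main one of 2-cell embryos, Zscan4d (chr7:11165259-11165348, minus strand). Capitals mark the 3 bases at which Zscan4d differs from Zscan4c, and Zscan4b, Zscan4e and Zscan4f are identical to Zscan4c over this stretch.
Zscan4c: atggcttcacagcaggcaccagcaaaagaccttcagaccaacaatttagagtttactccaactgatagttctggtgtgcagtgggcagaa
Zscan4d: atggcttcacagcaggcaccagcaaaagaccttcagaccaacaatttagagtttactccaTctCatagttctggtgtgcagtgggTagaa

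Over the whole coding sequence Zscan4b and Zscan4e were 99.7% identical, Zscan4c and Zscan4f 99.6%, and Zscan4d shared between 96.5% and 97.7% with the other coding copies described here. Tcstv1 and Tcstv3 were 93.6% identical. Of all windows of 100 bases in a transcript, the share also present in the transcript of another gene was 89.5% in Zscan4f, 84.1% in Zscan4e, 78.7% in Zscan4b and 72.8% in Zscan4c. It was 39.1% in Zscan4a, 29.6% in Zscan4d, 7.8% in Tcstv3, 4.1% in Tcstv1 and 0.6% in Zfp352. Values of Zscan4d, Zscan4a, Tcstv1, Tcstv3 and Zfp352 therefore rest more on sequence of their own than those of the other 4, and the sources used here do not give the handling of reads with several matches.

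The promoters of 4 copies are alike around the letters TATAAA and are shown. The RefSeq promoter table (build GRCm38.p6) held 5 of the 9 genes. These stretches hold 100 bases, 70 before and 30 from the letters TATAAA, which are in capitals, on the gene's strand, for Zscan4b (chr7:10905052-10905151, minus strand), Zscan4c (chr7:11005621-11005720, plus strand), Zscan4d (chr7:11166184-11166283, minus strand) and Zscan4f (chr7:11397814-11397913, plus strand).
Zscan4b: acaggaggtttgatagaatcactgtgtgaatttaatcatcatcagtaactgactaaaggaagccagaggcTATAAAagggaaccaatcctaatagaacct
Zscan4c: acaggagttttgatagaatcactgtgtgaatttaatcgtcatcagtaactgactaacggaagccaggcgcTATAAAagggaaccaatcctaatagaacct
Zscan4d: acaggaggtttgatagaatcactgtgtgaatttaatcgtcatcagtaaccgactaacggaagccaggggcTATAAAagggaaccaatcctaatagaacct
Zscan4f: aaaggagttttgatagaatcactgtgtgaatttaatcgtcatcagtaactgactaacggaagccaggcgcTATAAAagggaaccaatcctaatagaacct

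Any pair of these stretches shared between 94 and 99 of 100 bases, with Zscan4c and Zscan4f the closest pair. Over the whole promoters of the table the copies shared between 77.5% and 95.7% of aligned positions, gaps counted as differences, with Zscan4b and Zscan4f closest. TATAAA was the only motif searched, on both strands. It occurred in 13.62% of the 32851 promoters of the table on either strand, and in 8.32% on the gene's own strand, and it was not found in the Zfp352 promoter. A match is a description of the letters.

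The libraries of the 12 h set held 3399838 to 7164928 counts each (median 5244543). The libraries of 0 h and 1 h were deeper, with 8598431 to 13281252 counts. The labelled cell type was checked with 8 stem cell markers such as Nanog and Esrrb, which summed to 2948 to 9435 CPM (counts scaled by library size) over the 26 libraries in IAA for 12 h and 4385 to 6559 CPM over the 26 untreated ones. Markers of embryonic fibroblasts summed to 5.51 to 30.7 CPM in IAA and 5.39 to 22.7 CPM untreated, with 6 of 8 detected in each state. Primitive endoderm markers summed to 3.04 to 30.6 CPM in IAA and 4.48 to 29.4 CPM untreated, and trophectoderm markers to 70.5 to 188 CPM and 94.1 to 157 CPM, with 8 of 8 detected. CPM values are scaled by TMM factors throughout, errors of levels are SD over the 2 libraries of a group, and those of log2 fold changes are SE. The chi-square of replicate differences per degree of freedom, 1 where they show sampling noise alone, ran from 1.12 to 16.6, and was highest in untreated RPB7 (16.6), RPB3 at 1 h (10.5), untreated RPB5 (9.33) and untreated RPB11 (8.48). Nothing in the labels states that both libraries of a group are separate cultures. The p-values therefore cover only the variation between these samples, and it may be technical. "Rose" and "fell" are kept for genes for which edgeR's quasi-likelihood test gave a Benjamini-Hochberg adjusted p under 0.05 over all genes tested.

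The first comparison asks whether losing a Pol II subunit for 12 h moves the 2-cell-like genes. All 6 Zscan4 copies rose in the RPB8 line, 5 of 6 in RPB5 and 4 of 6 in RPB6, by 0.99 to 2.52 on the log2 scale. In the RPB10 line 1 copy rose, and in the other 9 lines, WT among them, no copy passed the test. Tcstv1, Tcstv3 and Zfp352 had too few counts for the test at 12 h, so that 6 of the 9 genes were tested and 3 are given as counts.

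In the RPB8 line the 6 Zscan4 copies together had 128 and 104 raw counts in IAA, or 36.6 and 33.8 CPM, against 58 and 51 raw counts, or 10.1 and 9.21 CPM, untreated. Both IAA libraries were above both untreated ones for the sum and for each of the 6 copies, as they were for 40.7% of all genes tested. All 6 copies rose, where 31.5% of the 17928 genes tested were higher in this line. Zscan4a had 25 and 16 raw counts (7.15 and 5.21 CPM) in IAA, against 6 and 6 (1.05 and 1.08 CPM) untreated, a log2 fold change of 2.52 ± 0.461 (edgeR, adjusted p = 6.68e-06). Zscan4f had 20 and 27 raw counts (5.72 and 8.79 CPM) in IAA, against 9 and 8 (1.57 and 1.44 CPM) untreated, a change of 2.23 ± 0.468 (adjusted p = 6.1e-05). Zscan4a is the pseudogene by annotation and Zscan4f a coding copy, and their changes lay within 1 SE of each other. Zscan4d, with the most distinct sequence, had 22 and 26 raw counts (6.29 and 8.46 CPM) in IAA, against 20 and 13 (3.5 and 2.35 CPM) untreated, a change of 1.31 ± 0.345 (adjusted p = 0.000982). The other copies changed by 2.29 (Zscan4b), 1.82 (Zscan4c) and 1.6 (Zscan4e). The call of Zscan4b was lost without untreated replicate 1 (1.71) or IAA replicate 1 (1.77), and that of Zscan4e without IAA replicate 1 (0.76).

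In the RPB5 line the copies together had 235 and 218 raw counts in IAA, or 47.8 and 46.7 CPM, against 77 and 85 raw counts, or 15.8 and 13.8 CPM, untreated. This was the highest level of any group in the 12 h set. Of the 6 copies 5 rose, where 31.0% of all genes were higher. Zscan4d had 78 and 59 raw counts (15.9 and 12.7 CPM) in IAA, against 27 and 21 (5.54 and 3.4 CPM) untreated, a change of 1.7 ± 0.265 (edgeR, adjusted p = 3.95e-07). Zscan4e had 37 and 45 raw counts (7.53 and 9.65 CPM) in IAA, against 15 and 8 (3.08 and 1.29 CPM) untreated, a change of 2.02 ± 0.334 (adjusted p = 1.52e-06). Both IAA libraries were above both untreated ones for each of the 6 copies and for 40.7% of all genes tested. Zscan4f changed by 1.95, Zscan4c by 1.7 and Zscan4a by 0.99, while Zscan4b, with 8 and 12 raw counts in IAA against 3 and 6 untreated, stood at 1.34 (edgeR, adjusted p = 0.0516). The call of Zscan4a was lost without any 1 of the 4 RPB5 libraries, at 0.85 to 1.18.

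In the RPB6 line the copies together had 114 and 109 raw counts in IAA, or 37.8 and 36.8 CPM, against 74 and 83 raw counts, or 13.3 and 14 CPM, untreated. Of the 6 copies 4 rose, where 27.3% of all genes were higher. Zscan4d had 33 raw counts in each IAA library (10.9 and 11.1 CPM), against 19 in each untreated library (3.4 and 3.21 CPM), a change of 1.73 ± 0.314 (edgeR, adjusted p = 4.81e-06). Zscan4e changed by 1.93 ± 0.403 (adjusted p = 5.26e-05), Zscan4c by 1.31 and Zscan4a by 1.25. Zscan4b stood at 1.18 and Zscan4f at 0.94, and neither passed. Their groups did not overlap, which held for 34.6% of all genes tested in this direction. Zscan4a lost its call without untreated replicate 2 (0.89), IAA replicate 1 (1.22) or IAA replicate 2 (1.19), and Zscan4c without untreated replicate 1 (0.87).

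Stem cell markers also moved in these 3 lines, though not in these alone. Of the 8, 6 fell and 2 rose in each of RPB8, RPB5 and RPB6. The median log2 fold changes were -1.15, -0.86 and -1.39 in that order. Over all genes 30.2%, 28.1% and 33.4% were lower there, and 31.5%, 31.0% and 27.3% higher. In RPB1 6 fell as well (median -1.19), where 30.5% of all genes were lower. In WT 3 fell (median -0.2), where 1.65% of all genes were called. The part of the markers in the Zscan4 values was not tested.

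The RPB6 and RPB8 values depend on how libraries are scaled. The TMM factors of the RPB6 IAA libraries were 0.668 and 0.658, against 1.02 in both untreated RPB6 libraries, and those of RPB8 were 0.919 and 0.906 in IAA against 1.02 and 1.03 untreated. Scaled to total counts, the RPB6 changes were 1.11 for Zscan4d and 1.3 for Zscan4e, which still passed, and 0.69 for Zscan4c and 0.63 for Zscan4a, which did not. Mitochondrial mRNAs took 2.73% and 2.66% of counts in RPB6 in IAA, against 1.1% and 1.04% untreated, and 3.61% and 3.8% in RPB8 in IAA, against 1.35% and 1.58% untreated. Scaled to these 13 mRNAs, the copies in RPB6 lay between -1.02 and -0.02, and in RPB8 between -0.19 for Zscan4d and 1.03 for Zscan4a, and none passed the test. On that scale the median of all genes moved to -2.08 in RPB6 and -1.43 in RPB8, so that Zscan4d stood 1.86 and 1.24 above the median. In RPB5 mitochondrial mRNAs took 2.19% and 2.27% in IAA, against 1.69% and 1.27% untreated, and Zscan4c, Zscan4d, Zscan4e and Zscan4f still rose on that scale, by 1.15 to 1.5, with the median of all genes at -0.46.

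**Figure D1:**
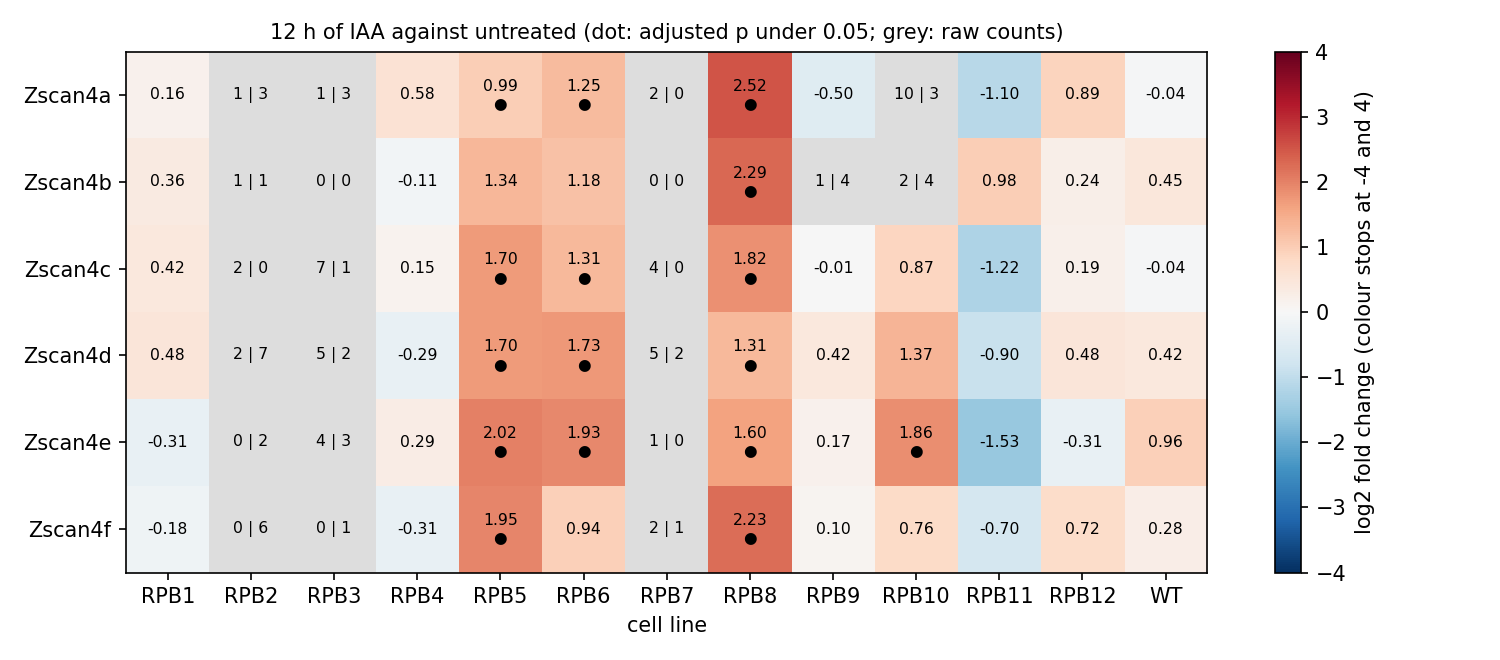
Log2 fold change of each Zscan4 copy (rows) after 12 h of IAA against untreated in each line (columns), with WT at the right. A dot marks an edgeR adjusted p under 0.05, and a grey cell gives raw counts in IAA and untreated, in that order, where a group had 3 counts or fewer. The 16 dots lie in RPB5, RPB6, RPB8 and RPB10, and the directions of RPB6, and of Zscan4d in RPB8, turn with scaling to mitochondrial mRNAs.

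In the RPB10 line Zscan4e alone rose (18.2% of all genes were higher), with 6 and 8 raw counts in IAA against 1 and 3 untreated, a change of 1.86 ± 0.708 (edgeR, adjusted p = 0.033). This call was lost without any single one of the 4 RPB10 libraries, at adjusted p = 0.05 to 0.184. The copies together had 31 and 40 raw counts in IAA, or 5.74 and 6.72 CPM, against 15 and 20, or 2.64 and 2.99 CPM, untreated. In the RPB11 line the sum lay the other way, with 35 and 39 raw counts (5.22 and 5.88 CPM) in IAA against 68 and 46 (13.9 and 7.69 CPM) untreated, and no copy passed (23.7% of all genes did). Without untreated replicate 2 of that line 1 copy was called lower.

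No copy passed the test in the 7 remaining degron lines or in WT. The share of all genes called was 66.3% in RPB1, 61.9% in RPB2, 47.7% in RPB3, 2.08% in RPB4, 41.3% in RPB7, 34.8% in RPB9, 4.79% in RPB12 and 1.65% in WT. In RPB1, where most genes moved, the copies together had 55 and 61 raw counts (10.7 and 11.4 CPM) in IAA against 62 and 33 (12.4 and 6.93 CPM) untreated. In WT they had 121 and 128 (24.1 and 26.4 CPM) in IAA against 109 and 133 (19.3 and 23.6 CPM) untreated, and Zscan4e stood at 0.96 (edgeR, adjusted p = 0.272). In RPB12 they had 227 and 212 (39.5 and 37.4 CPM) in IAA against 120 and 196 (25.6 and 34.4 CPM) untreated. RPB2, RPB3 and RPB7 gave between 1 and 11 raw counts per library over all 6 copies in either state, too few for a firm value of a single copy. Over the 13 lines and 6 copies, 16 of 78 tests were called, all higher, and 0 lower by edgeR. At an unadjusted p under 0.05 there were 27, 3 of them lower, and DESeq2 called 15, all higher. These are 14 of the 16, without Zscan4e in RPB10 and Zscan4a in RPB5, and Zscan4c in RPB2 (adjusted p = 0.0372).

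**Figure D2:**
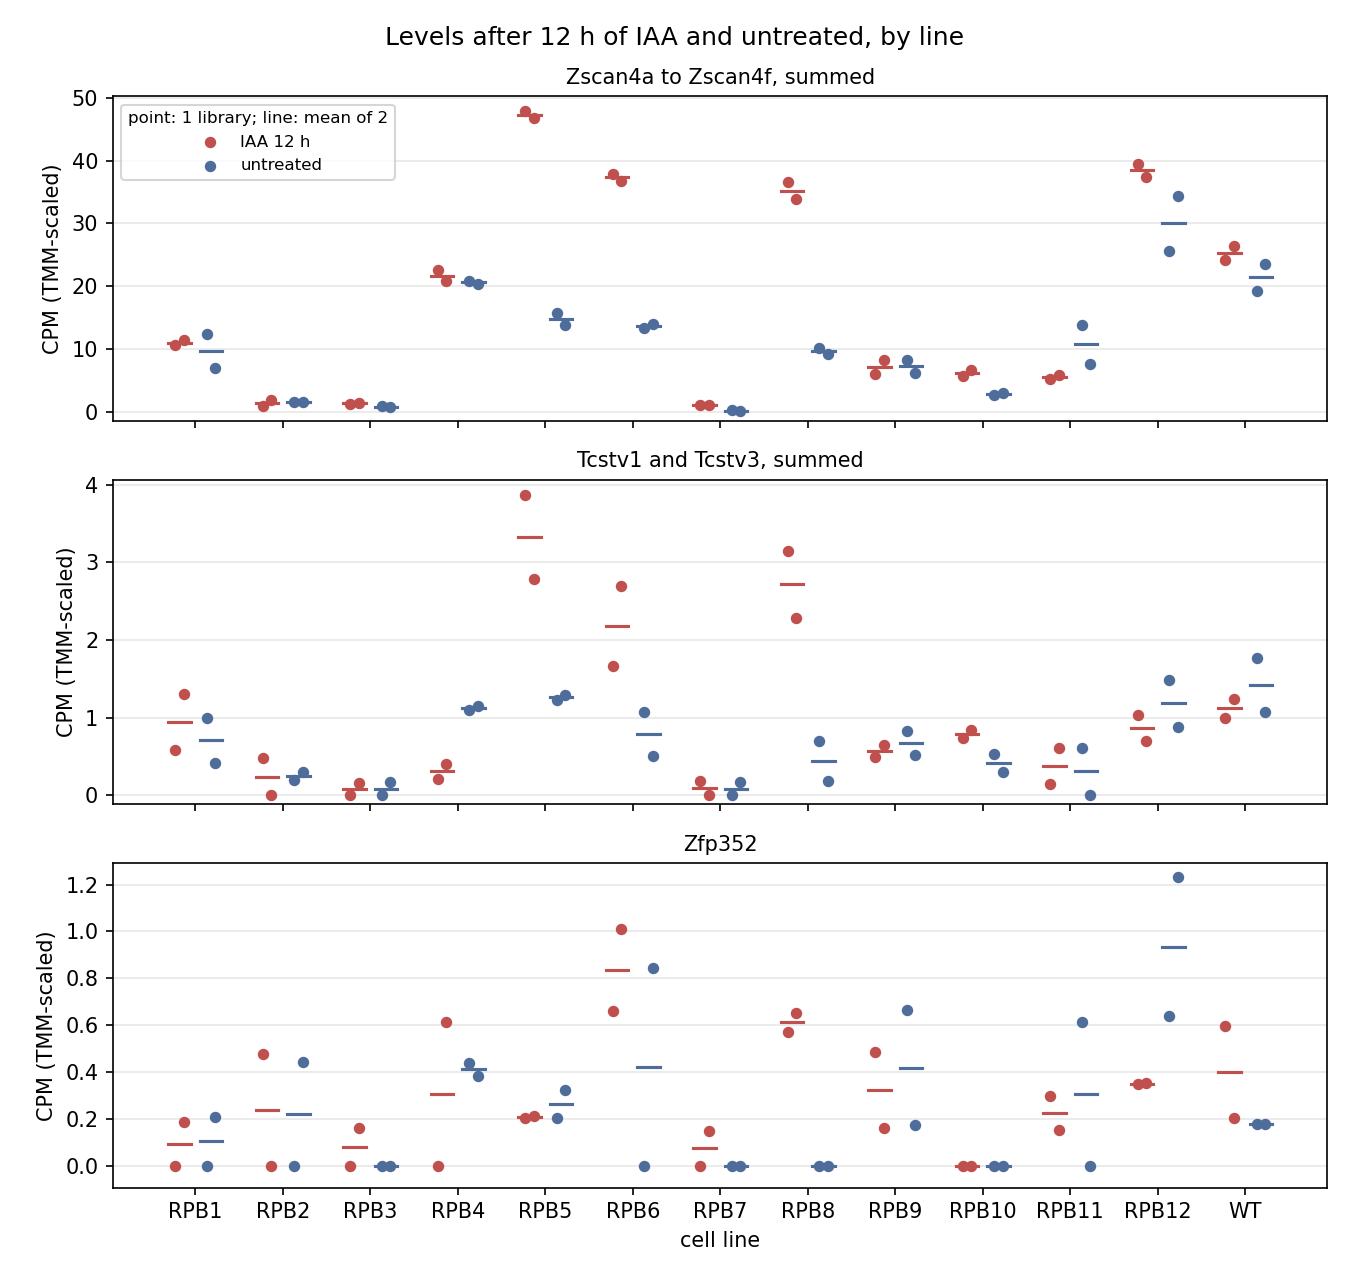
Levels of the 6 Zscan4 copies summed, of Tcstv1 and Tcstv3 summed, and of Zfp352 (CPM, 3 panels with their own axes) in each library after 12 h of IAA (left in each line) and untreated (right), with WT last. The Zscan4 sum in IAA reached 46.7 to 47.8 CPM in RPB5, 36.8 to 37.8 in RPB6 and 33.8 to 36.6 in RPB8, above the untreated libraries of those lines.

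The summed Tcstv1 and Tcstv3 level of the 12 h set was highest in IAA in RPB5, RPB8 and RPB6. Together they had 19 and 13 raw counts (3.87 and 2.79 CPM) in RPB5 in IAA against 6 and 8 (1.23 and 1.29 CPM) untreated. In RPB8 they had 11 and 7 (3.15 and 2.28 CPM) in IAA against 4 and 1 (0.699 and 0.181 CPM) untreated, and in RPB6 5 and 8 (1.66 and 2.7 CPM) in IAA against 6 and 3 (1.07 and 0.507 CPM) untreated. In each of the 3 lines both IAA libraries lay above both untreated ones in CPM. This held for 40.7% of all genes tested in RPB5, 40.7% in RPB8 and 34.6% in RPB6. In RPB6 the raw Tcstv counts overlapped, and the order there rests on the lower TMM factors in IAA given above. In WT the groups overlapped, with 5 and 6 raw counts in IAA against 10 and 6 untreated. In RPB4 the sum lay lower, with 1 and 2 raw counts in IAA against 5 and 6 untreated. Neither Tcstv1 (-1.37) nor Tcstv3 (-1.86) was called there in a fit with no filter on low counts. With no filter on low counts edgeR called Tcstv3 in RPB8, with 7 and 6 raw counts in IAA against 2 and 0 untreated (3.24 ± 0.915, adjusted p = 0.0018). The response of Tcstv3 in RPB8 also exceeded that in WT (3.62, adjusted p = 0.0196), where 22.2% of genes were called. The fit without a filter called Tcstv1 in RPB5 too, with 6 and 6 raw counts in IAA against 0 and 2 untreated (2.58 ± 1.03, adjusted p = 0.0454). Without the filter 28.8% of genes were called in RPB8 and 27.7% in RPB5.

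Zfp352 had 0 to 7 raw counts in every library of the 12 h set, and its groups could not be ordered at this depth. The highest mean was 0.935 ± 0.417 CPM in untreated RPB12. In RPB8 it had 2 and 2 raw counts in IAA and 0 in both untreated libraries, where a floor of 3 counts over the group stands at 0.266 CPM. No group comparison of Zfp352 passed in the fit without a filter.

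IAA was also given to WT cells, so the response of each degron line was tested against that of WT in the same model. The 12 comparisons share the 4 WT libraries. The response exceeded that of WT for Zscan4c, Zscan4d and Zscan4f in RPB5 (20.0% of all genes were higher by this test), for Zscan4a, Zscan4c and Zscan4d in RPB6 (23.9%) and for Zscan4a, Zscan4c and Zscan4f in RPB8 (23.9%). For RPB5 the differences in log2 fold change were 1.74 ± 0.467, 1.28 ± 0.432 and 1.67 ± 0.626, in that order. For RPB6 they were 1.29 ± 0.535, 1.36 ± 0.499 and 1.31 ± 0.461. For RPB8 they were 2.56 ± 0.566, 1.87 ± 0.524 and 1.95 ± 0.655, and edgeR adjusted p lay between 0.000192 and 0.038 over the 9. The response of Zscan4e in RPB11 was lower than that of WT by a difference of -2.5 ± 0.72 (edgeR, adjusted p = 0.0173), where 6.61% of all genes were lower. That gene had 2 and 5 raw counts in RPB11 in IAA against 8 and 9 untreated, and 21 and 15 in WT in IAA against 11 and 10 untreated. No copy passed in the other 8 lines, where the share of all genes called was 49.1% (RPB1), 55.5% (RPB2), 28.2% (RPB3), 0.284% (RPB4), 25.2% (RPB7), 18.0% (RPB9), 25.6% (RPB10) and 0.53% (RPB12). Of these 10 calls, 4 stood without WT untreated replicate 2 and 4 without WT IAA replicate 1. The 3 that passed whichever library was left out were Zscan4c in RPB5 and Zscan4a and Zscan4c in RPB8. Scaled to mitochondrial mRNAs the differences in RPB6 were -0.57, -0.51 and -0.55 for Zscan4a, Zscan4c and Zscan4d, and none of the 10 calls stood. The 3 calls on that scale were lower and all in RPB2.

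The lines already differed in Zscan4 before IAA. The 6 copies together ran from 0.221 ± 0.0662 CPM in untreated RPB7 (2 and 1 raw counts) to 30 ± 6.25 CPM in untreated RPB12 (120 and 196 raw counts). WT stood second at 21.5 ± 3.06 CPM and its libraries overlapped those of RPB4 at 20.6 ± 0.31. RPB5 (14.8 ± 1.46), RPB6 (13.6 ± 0.545), RPB11 (10.8 ± 4.39), RPB8 (9.67 ± 0.658), RPB1 (9.67 ± 3.88) and RPB9 (7.27 ± 1.44) followed, each overlapping the next. RPB10 (2.81 ± 0.243), RPB2 (1.6 ± 0.0414), RPB3 (0.87 ± 0.019) and RPB7 each lay below the line before it with no overlap. RPB2, RPB3 and RPB7 thus had 19, 10 and 3 raw counts over both untreated libraries, against 242 in WT.

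Each untreated line was then tested against untreated WT, with the 2 WT libraries shared by all 12 comparisons. All 6 copies were lower in RPB2 (20.6% of all genes were lower), RPB3 (14.5%), RPB7 (26.8%) and RPB10 (15.8%). Zscan4c, for example, had 0 and 0 raw counts in untreated RPB2 and in untreated RPB7, against 32 and 40 in WT (5.66 and 7.1 CPM), at least 25.3-fold lower in RPB2 and 28.1-fold lower in RPB7 at a floor of 3 counts over the group. Zscan4a had 0 counts in untreated RPB7 against 25 and 36 in WT, at least 23.8-fold lower.

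In the other lines fewer copies were called. There were 3 lower in RPB9 (7.15% of all genes), 2 in RPB1 (10.3%), 2 in RPB6 (12.0%), 2 in RPB8 (10.3%), 2 in RPB11 (11.0%), and 1 in RPB4 (17.1%), 1 in RPB5 (9.18%) and 1 in RPB12 (20.6%). In RPB12 Zscan4d and Zscan4e were higher than in WT (19.6% of all genes were). Zscan4d had 40 and 64 raw counts (8.53 and 11.2 CPM) in untreated RPB12 against 19 and 22 (3.36 and 3.91 CPM) in untreated WT, a difference of 1.45 ± 0.286 (edgeR, adjusted p = 5.42e-05). Zscan4e had 29 and 32 raw counts against 11 and 10, a difference of 1.65 ± 0.361 (adjusted p = 0.000243).

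Zscan4a, the copy annotated as a pseudogene, was lower than in WT in all 12 degron lines, from -0.91 in RPB4 to -2.32 in RPB8 over the 8 lines with more than 3 raw counts. RPB2, RPB3 and RPB10 had 3 raw counts each over both untreated libraries and RPB7 had 0, against 61 in WT. It had 14 and 14 raw counts (3.07 and 2.69 CPM) in untreated RPB4 and 8 and 19 (1.71 and 3.34 CPM) in untreated RPB12, against 25 and 36 (4.42 and 6.39 CPM) in untreated WT. Without WT untreated replicate 2 the calls in 6 lines were lost, at -0.58 in RPB4, -0.87 in RPB5, -1.05 in RPB6, -1.42 in RPB9, -0.74 in RPB11 and -0.73 in RPB12. Of the other copies Zscan4c was lower in 9 lines, Zscan4d in 5, and Zscan4b, Zscan4e and Zscan4f in 4 each. In all, 38 of 72 tests were lower and 2 higher, and 29 were called without WT untreated replicate 2. With no filter on low counts Tcstv1 and Tcstv3 were also lower in RPB7 (edgeR, adjusted p = 0.0234 and 0.0319), with 0 and 1 raw counts over both untreated libraries against 7 and 9 in WT, and Tcstv1 in RPB2 (adjusted p = 0.0424), where it had 0. Without the filter 24.7% of genes were called in RPB7 and 18.1% in RPB2.

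**Figure D3:**
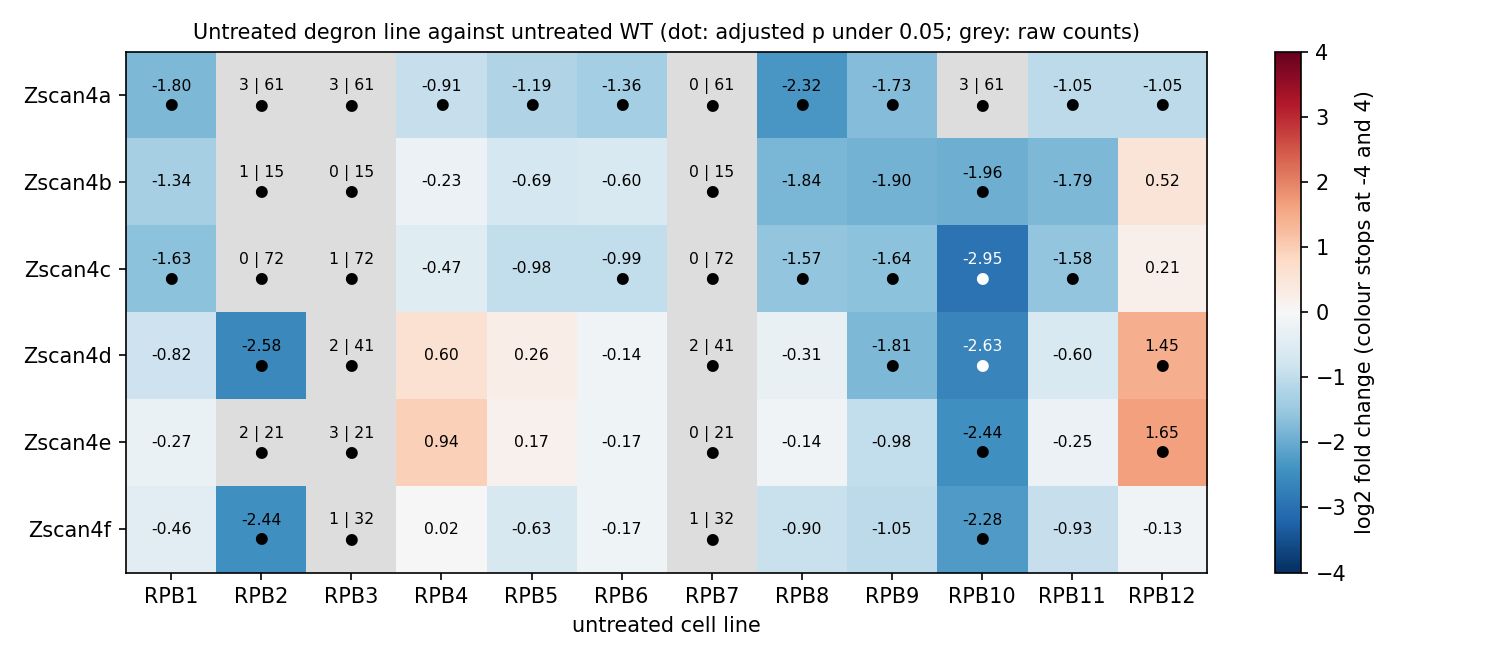
Log2 fold change of each Zscan4 copy (rows) in each untreated degron line (columns) against untreated WT. A dot marks an edgeR adjusted p under 0.05, and a grey cell gives raw counts in the line and in WT, in that order, where a group had 3 counts or fewer. RPB2, RPB3, RPB7 and RPB10 have 6 dots each, and Zscan4d and Zscan4e in RPB12 are the 2 higher calls.

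The copies did not make up the same share of the Zscan4 counts in every line. In untreated RPB12 Zscan4d gave 32.9% of 316 counts (exact 95% binomial interval 27.8% to 38.4%) and Zscan4a 8.54% (5.71% to 12.2%). In untreated WT Zscan4d gave 16.9% of 242 counts (12.4% to 22.3%) and Zscan4a 25.2% (19.9% to 31.2%). The intervals of RPB12 and WT do not overlap for either gene, and they cover counting error only. After IAA the same order was seen, with Zscan4d at 36.2% (31.7% to 40.9%) and Zscan4a at 12.5% (9.58% to 16%) in RPB12, against 19.3% (14.6% to 24.7%) and 20.9% (16% to 26.5%) in WT. In RPB5, the Zscan4d share was 30.2% in IAA and 29.6% untreated, so the level rose while the share stayed within its interval of 22.7% to 37.3%. Other shares moved further. Zscan4d in RPB8 stood at 20.7% in IAA, below its untreated interval of 21.8% to 39.8%. Zscan4a in RPB5 stood at 9.93% in IAA, below its untreated interval of 10.8% to 22.6%. In both cases the intervals of IAA and untreated overlapped. Per kilobase of exon, a measure of the level that allows for gene length, Zscan4d was the highest copy in RPB5 in IAA at 6.29 CPM per kb, before Zscan4e at 4.79 and Zscan4c at 4.66. In untreated WT Zscan4c was highest at 2.8 CPM per kb, before Zscan4a at 2.37 and Zscan4d at 1.6. This measure uses the full exon length and does not allow for sequence shared between genes. The share of transcript windows also present in another gene was 29.6% in Zscan4d, 39.1% in Zscan4a, 72.8% in Zscan4c and 84.1% in Zscan4e. Its part in the order of the copies was not tested.

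**Figure D4:**
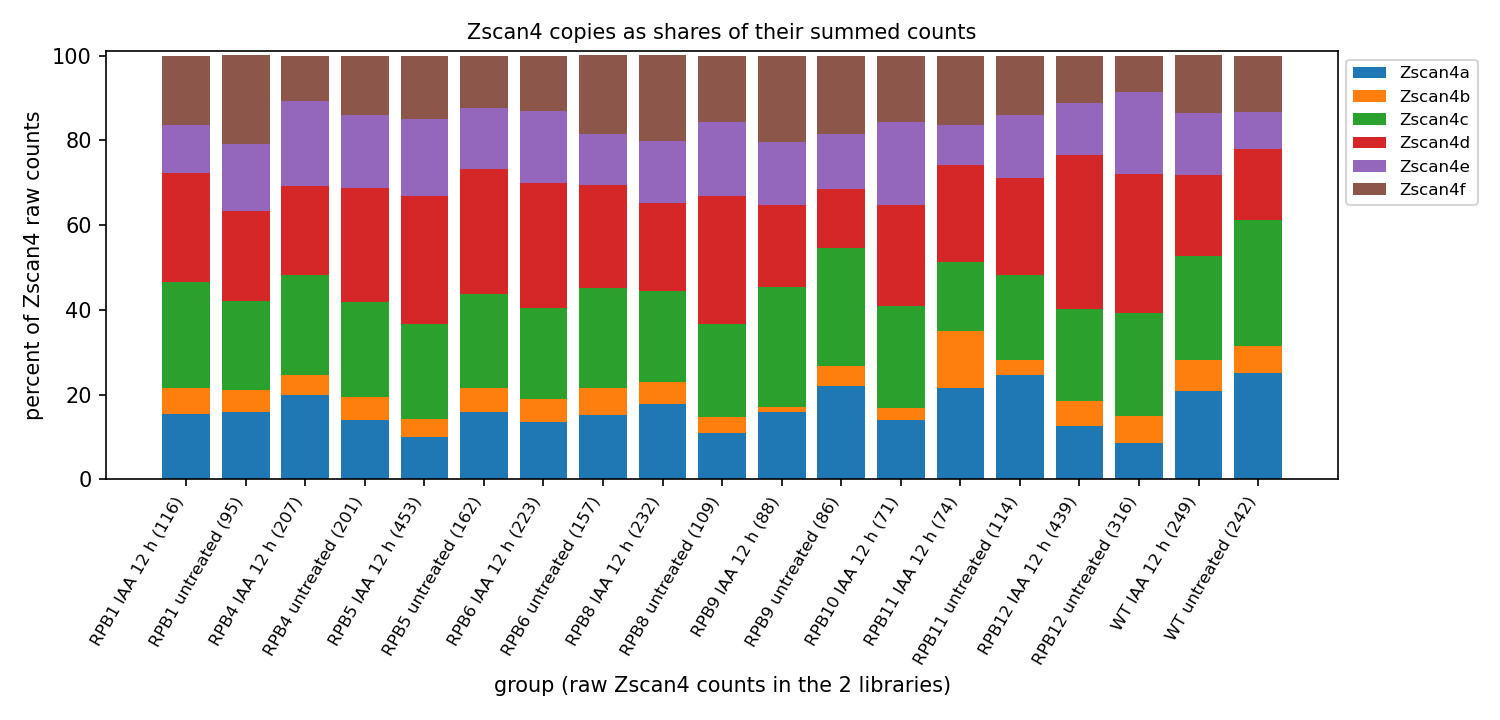
Share of the summed Zscan4 raw counts (percent) that each copy took, in groups of the 12 h set with at least 50 such counts (total in brackets). IAA stands left of untreated for each line and WT is last, and Zscan4d takes 32.9% to 36.2% in RPB12 against 16.9% to 19.3% in WT.

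At 1 h of IAA no gene passed the test. All 9 were tested in these deeper libraries, and 0 of 27 tests were called by edgeR, where 24.9% of the 15658 genes tested were called in RPB1, 0.358% in RPB3 and 1.54% in RPB6. At an unadjusted p under 0.05 there were 3, and DESeq2 called 0. In RPB6 the Zscan4 copies together had 388 and 312 raw counts at 1 h (35.8 and 35.9 CPM) against 375 and 419 at 0 h (38.9 and 46.4 CPM). The 7 Zscan4 and Zfp352 log2 fold changes in RPB6 lay between -0.42 and -0.18, and those of Tcstv1 and Tcstv3 at 0.13 and 0.11. In RPB1 the copies had 69 and 65 raw counts at 1 h against 63 and 71 at 0 h. Within that sum Zscan4d had 25 and 16 raw counts at 1 h against 6 and 13 at 0 h, a change of 0.99 ± 0.413 (edgeR, adjusted p = 0.0898). It was called without RPB1 0 h replicate 2 (adjusted p = 0.0459) and in a fit of the RPB1 libraries alone (0.0494). In RPB3 the copies had 5 and 3 raw counts at 1 h against 4 and 9 at 0 h.

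Zfp352 was readily counted only in these libraries of RPB6. It had 29 and 17 raw counts at 1 h (2.68 and 1.95 CPM) against 29 and 28 at 0 h (3.01 and 3.1 CPM), a change of -0.38 ± 0.303 (edgeR, adjusted p = 0.552). RPB1 and RPB3 had 0 to 3 per library. In the 12 h set untreated RPB6 had 0 and 5. Untreated RPB6 also had a Zscan4 sum of 13.3 and 14 CPM in the 12 h set, below the 38.9 and 46.4 CPM of RPB6 at 0 h. The sets were scaled apart, and set and culture cannot be told apart.

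**Figure D5:**
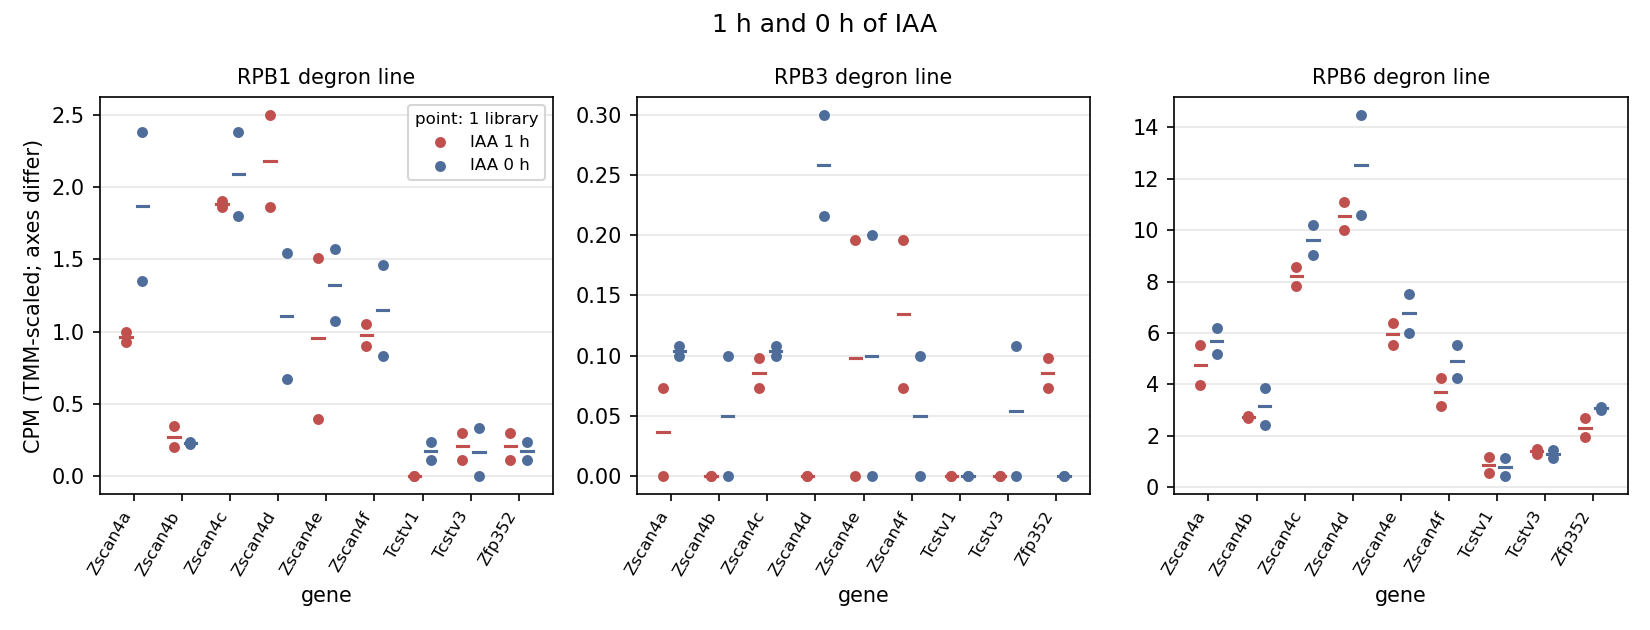
Level (CPM) of each of the 9 genes in each library at 1 h (left) and 0 h (right) of IAA in RPB1, RPB3 and RPB6, with short lines at the means and a separate axis for each line. RPB6 shows the highest levels and no gene passed the test between the times.

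The genes varied together across the 52 libraries of the 12 h set, which share lines, treatments and, between copies, sequence. Pearson r of log2 CPM between pairs of Zscan4 copies lay between 0.769 (Zscan4b and Zscan4f) and 0.931 (Zscan4d and Zscan4e), as a description. Tcstv1 and Tcstv3 correlated with single Zscan4 copies at 0.67 to 0.746 and with each other at 0.653, and Zfp352 with the copies at 0.488 to 0.598. Among 15411 genes with a mean of at least 1 CPM, those most like the Zscan4 sum were Gm5039 (r = 0.931), Gm5662 (0.917), Zscan4-ps2 (0.916), Gm8300 (0.906) and Zscan4-ps3 (0.906). Zscan4-ps2 and Zscan4-ps3 are further copies of the cluster, so their counts can hold reads of the described copies. For the Tcstv sum they were Gm5662 (0.795), Usp17le (0.779), Gm8300 (0.778), Gm5039 (0.768) and Usp17lb (0.764). For Zfp352 r was lower, at 0.608 for Zscan4-ps2, 0.599 for Gm2016, 0.591 for Gm8332 and Usp17lb, and 0.572 for Gm21939.

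Other genes of the 2-cell-like state were counted from a list of 48. It includes Zscan4-ps1, Zscan4-ps2 and Zscan4-ps3, further copies of the cluster. The share of their transcript windows also present in other genes, the described copies among them, was 23.4%, 74.6% and 52.2%, in that order. Their counts can hold reads of the described copies, so the list is not fully separate from those copies. At 12 h 17 genes of the list could be tested. Of these, 14 rose in RPB8, where 31.5% of all genes were higher, 9 in RPB5 (31.0%) and 8 in RPB6 (27.3%). The count was 6 in RPB1, close to the 35.8% of all genes that were higher there, and lay below that share in RPB3 (3, against 24.4%), RPB10 (2, against 18.2%), RPB2 (1, against 27.9%) and RPB9 (1, against 16.8%). None fell in any line. The median log2 fold change of the list was 2.48 in RPB8, 1.31 in RPB5 and 1.32 in RPB6, beside 0.04, 0.08 and -0.13 over all genes. In RPB3 the median was 2.13, beside 0.06 over all genes, though only 3 genes of the list were called. It was 0.64 in RPB10 and 0.58 in RPB1. In WT and RPB4 it was 0.19 and 0.36 with 0 called, and the remaining lines lay between -0.15 and 0.31. Usp17le, of a family of deubiquitinating enzymes, averaged 9.94 ± 1.11 CPM in RPB5 in IAA and 2.41 ± 0.66 CPM untreated, and rose by 2.06 there, 2.21 in RPB6, 2.6 in RPB8 and 1.91 in RPB1. Arg2, a mitochondrial arginase, rose by 3.83 in RPB1, 1.99 in RPB5, 1.5 in RPB6 and 2.2 in RPB8. Gm8300 rose by 1.61, 1.41, 2.28 and 2.78, and Gm2016 by 2.47, 1.1, 1.72 and 4.91 in the same order. Scaled to mitochondrial mRNAs, the values of RPB8, RPB5 and RPB6 lie lower, as does the median of all genes given above, and the median in RPB1 stood at -0.47. At 1 h 27 genes of the list were tested and 0 were called in any of the 3 lines. Dux itself, annotated as Duxf3, had 10 and 7 raw counts in RPB5 in IAA against 1 and 2 untreated and 5 and 4 in RPB8 in IAA against 1 and 3 untreated. In RPB1 it had 1 and 8 in IAA against 0 and 2 untreated. In RPB6 it had 1 and 0 in IAA and 1 and 0 untreated, too few to test.

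Genes listed as restraining or activating the programme were called in both directions. Of 32 repressors 23 fell and 4 rose in RPB8, 22 fell and 4 rose in RPB5, and 16 fell and 12 rose in RPB6. In RPB1 29 fell and 1 rose. The part of these genes in the Zscan4 values was not tested. Over all genes 30.2% were lower in RPB8, 28.1% in RPB5, 33.4% in RPB6 and 30.5% in RPB1, and the shares higher are those given for the 2-cell-like list. Rif1, which holds down Zscan4 in stem cells, averaged 43.5 ± 6.79 CPM in RPB8 in IAA and 494 ± 46.3 CPM untreated (log2 fold change -3.5), and it fell in RPB5 (-2.42), RPB6 (-2.56), RPB1 (-2.35) and RPB2 (-3.35) too. Zfp42, a stem cell transcription factor, also one of the stem cell markers, fell in RPB8 (-3.01), RPB5 (-2.16), RPB6 (-2.69) and RPB2 (-4.03). Lin28a, an RNA-binding protein, fell in RPB8 (-0.99) and RPB5 (-1.07) and rose in RPB6 (1.9), and the deacetylase gene Hdac1 rose in all 3 (1.07, 0.66 and 1.57). Of 10 genes tested from the list of activators, 5 fell and 2 rose in RPB8, 5 fell in RPB5, and 3 fell and 4 rose in RPB6. In RPB6 3 of 10 is near the 33.4% of all genes that were lower. The list includes Pias4, whose place among activators is uncertain. Dppa2 and Dppa4, partners that activate Dux, fell in RPB8 (-1.4 and -0.94) and in RPB5 (-1.61 and -0.8) and rose in RPB6 (1.04 and 0.63). Top2a, a topoisomerase, fell in RPB8 (-3.18), RPB5 (-2.8) and RPB6 (-2.44), and Trp53, the gene of p53, rose in RPB6 (1.53) and stood at 0.04 and 0.07 in RPB8 and RPB5.

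Of 15 telomere protein genes, 8 fell and 4 rose in RPB8, 6 fell and 3 rose in RPB5, and 7 fell and 6 rose in RPB6. The shares of all genes lower and higher were 30.2% and 31.5% in RPB8, 28.1% and 31.0% in RPB5, and 33.4% and 27.3% in RPB6, and nothing particular to the list is read from its counts. Terf1, a subunit of the shelterin complex that caps telomeres, fell in RPB8 (-2.41), RPB5 (-1.86) and RPB6 (-0.69). Terf2ip, another shelterin subunit, rose in RPB8 (2.01) and RPB5 (1.33) and fell in RPB6 (-1.78). Parp1, a DNA repair enzyme, rose in all 3 lines (0.55, 0.32 and 1.48), and Dkc1, a telomerase component, rose in RPB8 (0.2) and RPB6 (1.23).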

How the data were processed

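RNA-seq was deposited as raw counts of reads per gene, not normalized. Per the submitters' processing notes the tools included cutadapt 1.18, STAR, Bowtie2 and featureCounts with builds mm10 and dm6, but the sources used here do not give the annotation or the handling of strand and of reads with several matches. Per the labels' protocols the 12 h libraries were poly(A)-selected. Of the table, 4 columns that match no sample were not used. The Drosophila spike-in was not analysed here.

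The 52 libraries of the 12 h set (26 groups, 17928 genes after filterByExpr, 26 residual degrees of freedom) and the 12 of the 0 h and 1 h set (6 groups, 15658 genes, 6 degrees of freedom) were fitted apart with edgeR 4.0.16 in R 4.3.3, with TMM factors, quasi-likelihood tests and Benjamini-Hochberg adjustment at 0.05. The scripts were tested on simulated data. DESeq2 1.42.0, other scalings, no filter, the compared groups alone, a replicate block and each library left out were the alternatives. Shares have exact binomial intervals at 95%, which cover counting error only, and a floor is 3 counts over a group. Replicates differed by more than sampling noise (chi-square per degree of freedom of 1.12 to 16.6). The 9 genes are all named, other lists name up to 4 genes called in most lines, and likeness is Pearson r of log2 CPM with a prior count of 2. The genes and lists were chosen with earlier results of these data known. Python 3.11.15, pandas 2.3.3, scipy 1.17.1 and matplotlib 3.10.9 were used.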

Additional observations from a re-analysis of the deposited data

Results flagged for a closer look

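Of the responses tested against the response of WT, 10 differed by edgeR's interaction test, and the 12 comparisons share the 4 WT libraries. The difference in log2 fold change in RPB5 was 1.74 for Zscan4c, 1.28 for Zscan4d and 1.67 for Zscan4f. In RPB6 it was 1.29 for Zscan4a, 1.36 for Zscan4c and 1.31 for Zscan4d. In RPB8 it was 2.56 for Zscan4a, 1.87 for Zscan4c and 1.95 for Zscan4f. In RPB11 it was -2.5 for Zscan4e, the only one below WT.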

How the results depend on the processing

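After 12 h of IAA the 16 calls became 7 with scaling to mitochondrial mRNAs, of which 4 are among the 16, all in RPB5. The 3 new ones are Zscan4c higher in RPB3 (2.85) and Zscan4d and Zscan4f lower in RPB2 (-2.3 and -4.62). On that scale 13910 of the 17928 genes tested were lower in RPB2 (median -2.32) and 8188 higher in RPB3 (median 0.8). In RPB5 2158 were higher. Zscan4d in RPB2 thus stood 0.02 from the median of all genes. Mitochondrial mRNAs took 0.534% and 1.72% of counts in the 2 RPB3 libraries in IAA. The calls at 12 h numbered 15 to 17 under the other planned scalings, filters and tools. With single libraries left out they numbered 14 to 17, and 10 of the 16 were kept throughout. On the mitochondrial scale the RPB6 changes reversed to -0.69 (Zscan4a), -0.64 (Zscan4c), -0.22 (Zscan4d) and -0.02 (Zscan4e), and Zscan4d in RPB8 to -0.19. None of the 10 differences from the WT response stood on that scale, where 3 others were called, all lower in RPB2, and those of RPB6 reversed to -0.57 (Zscan4a), -0.51 (Zscan4c) and -0.55 (Zscan4d). They numbered 7 with total counts and 4 to 11 with libraries left out. The 40 calls of untreated lines against WT numbered 31 to 42 under other settings and 29 to 41 with libraries left out. At 1 h the count of 0 became 1 (Zscan4d in RPB1) with only the compared groups fitted, and 0 to 1 with libraries left out. The cause was not tested. Low counts of Tcstv1, Tcstv3 and Zfp352, and of all copies in RPB2, RPB3 and RPB7, limit what could be detected.

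Replicate numbers did not pair the samples: the correlation of their deviations was -0.349 to 0.135 at 12 h and 0.0176 to 0.212 for 0 h and 1 h. With the replicate block 16 calls were made at 12 h, 40 for untreated lines, 9 for differences from the WT response and 0 at 1 h. It ended the calls of Zscan4a in untreated RPB4 (edgeR, adjusted p = 0.0514) and of the Zscan4a response in RPB6 (0.064).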
